A study of Homo sapiens with 6 samples.

Results

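The HOX genes encode homeodomain transcription factors that lie in 4 clusters, HOXA on chromosome 7, HOXB on 17, HOXC on 12 and HOXD on 2. Their transcripts were compared here between HS578T cells with a vector for EP300 and HS578T cells with the same vector left empty. Members were taken by gene symbol from the platform's annotation, with 1 probe set per gene. The family has 39 genes, of which 23 were found and are described, among 17687 genes named on the array. The HOXA cluster is represented by 1 of its 11 genes (HOXA2), HOXB by 8 of 10, HOXC by 6 of 9 and HOXD by 8 of 9. The other 16 genes were not analysed here. Each of the 23 had a single probe set.

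HS578T is an established human breast carcinoma line of mesenchymal appearance. All cells were grown with insulin and G418 and carried pcDNA 3, a plasmid with a viral promoter, either empty (control) or with the cDNA of EP300 (EP300 group), a lysine acetyltransferase and transcriptional co-activator. The transfectants were pooled clones, and RNA of 3 separate cultures per condition was hybridised, 1 array each. The labels do not say if more than 1 transfected pool stood behind a condition, so p-values measure the spread between these cultures.

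Within a HOX cluster the genes are numbered along the chromosome. In the embryo, low-numbered (anterior) genes are active first and nearest the head, and high-numbered (posterior) genes later and further back, so that a cell's set of active HOX genes records its position in the body. Adult cells, mammary epithelium and fibroblasts among them, keep a part of this pattern. Retinoic acid is known to open the clusters from the anterior end, Polycomb proteins keep them silent, and Trithorax/MLL proteins keep them active. HOX proteins bind DNA together with TALE homeodomain partners of the PBX and MEIS families.

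The deposited values were taken as log2 values. They carry no detection call, so each probe set was placed against the quartiles of all probe sets of its array. The lower quartile lay between 3.47 and 3.50 over the 6 arrays, the median between 4.46 and 4.5 and the upper quartile between 6.36 and 6.41. Probe sets differ in how strongly they bind, so a rank on the array is not a ranking of transcript amounts between genes, and near the lower quartile the background is unknown. The level of EP300 itself was not analysed here. All 10 fixed mesenchymal markers lay above the array medians, with group medians of 14.52 (control) and 13.90 (EP300). VIM read 18.60 on all 6 arrays (SD 0.00 in each group), and a value without any spread cannot show a difference or its absence. Of these 10 markers 2 were higher and 8 lower in EP300 cultures, where 50.2% of all probe sets were higher. The 8 include VIM, whose difference of -0.00 is a matter of rounding and no decrease. In 7 the groups did not overlap, against 12.2% of all probe sets. An unadjusted limma p below 0.05 was found for 3 (30%, against 6.52% of all probe sets), and 0 passed the adjustment. These 3 were THY1 at -0.75, SNAI2 at 0.71 and COL1A2 at -0.49 (log2 difference). The part of these marker differences in any HOX value was not tested. Of 10 epithelial and luminal markers 5 had a group mean above the array medians, with medians over the list of 4.19 and 4.16, and CDH1, which encodes E-cadherin, measured 2.54 and 3.25, below the lower quartile. KRT18, a keratin of simple epithelia, was high at 11.13 and 10.02. Its groups did not overlap, with a difference of -1.11 ± 0.23 SE. KRT8, also above the upper quartile, read 6.96 and 7.33 (difference 0.37), with overlapping groups. Of the 10 epithelial and luminal markers 5 were higher and 5 lower in EP300 cultures, and in 3 the groups did not overlap. KRT18 alone had an unadjusted limma p below 0.05, and 0 passed the adjustment. Of 9 leukocyte and endothelial markers 3 had a group mean above the array medians. These were CD68 (6.70 and 6.74, above the upper quartile), VWF (4.88 and 4.88) and CD3E (4.76 and 4.58). PTPRC, the pan-leukocyte marker, measured 4.05 and 3.54.

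One sequence element ties HOX genes to their own products, the joint binding motif of PBX and HOX proteins, TGATNNAT, where N is any base. It was searched on both strands in the 250 bases before the start of each gene, as given by RefSeq for GRCh38.p14. Windows were present for 9 of the 23 genes, and 3 of these held the motif, each once, against 6.47% of 35116 windows of the same length. The 3 are shown because they are the HOX genes with a match, and the match is in capitals. HOXA2 is at chr7:27102684-27102933 on the minus strand, HOXB1 at chr17:48531012-48531261 on the minus strand and HOXD11 at chr2:176107030-176107279 on the plus strand.
HOXA2: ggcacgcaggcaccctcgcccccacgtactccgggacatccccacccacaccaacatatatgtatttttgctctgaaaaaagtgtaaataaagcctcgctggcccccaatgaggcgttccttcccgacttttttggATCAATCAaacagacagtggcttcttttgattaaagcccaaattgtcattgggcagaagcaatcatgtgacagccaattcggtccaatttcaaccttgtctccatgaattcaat
HOXB1: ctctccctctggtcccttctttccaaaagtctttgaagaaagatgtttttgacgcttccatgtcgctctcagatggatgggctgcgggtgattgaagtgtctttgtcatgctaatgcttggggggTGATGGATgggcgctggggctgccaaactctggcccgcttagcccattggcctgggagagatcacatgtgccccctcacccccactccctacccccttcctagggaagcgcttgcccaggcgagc
HOXD11: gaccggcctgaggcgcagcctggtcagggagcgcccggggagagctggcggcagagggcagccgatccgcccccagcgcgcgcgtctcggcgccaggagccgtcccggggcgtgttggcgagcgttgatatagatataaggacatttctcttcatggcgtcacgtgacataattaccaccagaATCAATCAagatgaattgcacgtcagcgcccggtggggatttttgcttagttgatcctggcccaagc
The matches lay 114 to 107 bases before the start in HOXA2, 125 to 118 in HOXB1 and 67 to 60 in HOXD11. HOXA2 and HOXD11 hold the same 8 letters, ATCAATCA, which is the motif read on the other strand, and HOXB1 holds TGATGGAT. A match is a description of the letters and not evidence of binding. In the expression values below, HOXA2 differed by 0.72, HOXB1 by -0.28 and HOXD11 by -0.11 (log2, EP300 minus control), so the signs were mixed among the 3 genes with the motif, and none of these differences passed the test.

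Most of the family read low against the quartiles of the arrays. A group mean above all 6 array medians was found for 5 genes, HOXC8, HOXC9, HOXC10, HOXC13 and HOXB7. Only HOXC9 and HOXC10 were above the median on every array. A further 13 genes were below the median on all 6 arrays, and 8 were above it on some arrays and below it on others. Below the lower quartile on all 6 arrays were 4 genes, HOXB5, HOXB13, HOXD3 and HOXD13. The median over the 23 genes was 3.91 in control and 3.93 in EP300 cultures (medians of group means, log2).

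**Figure D1:**
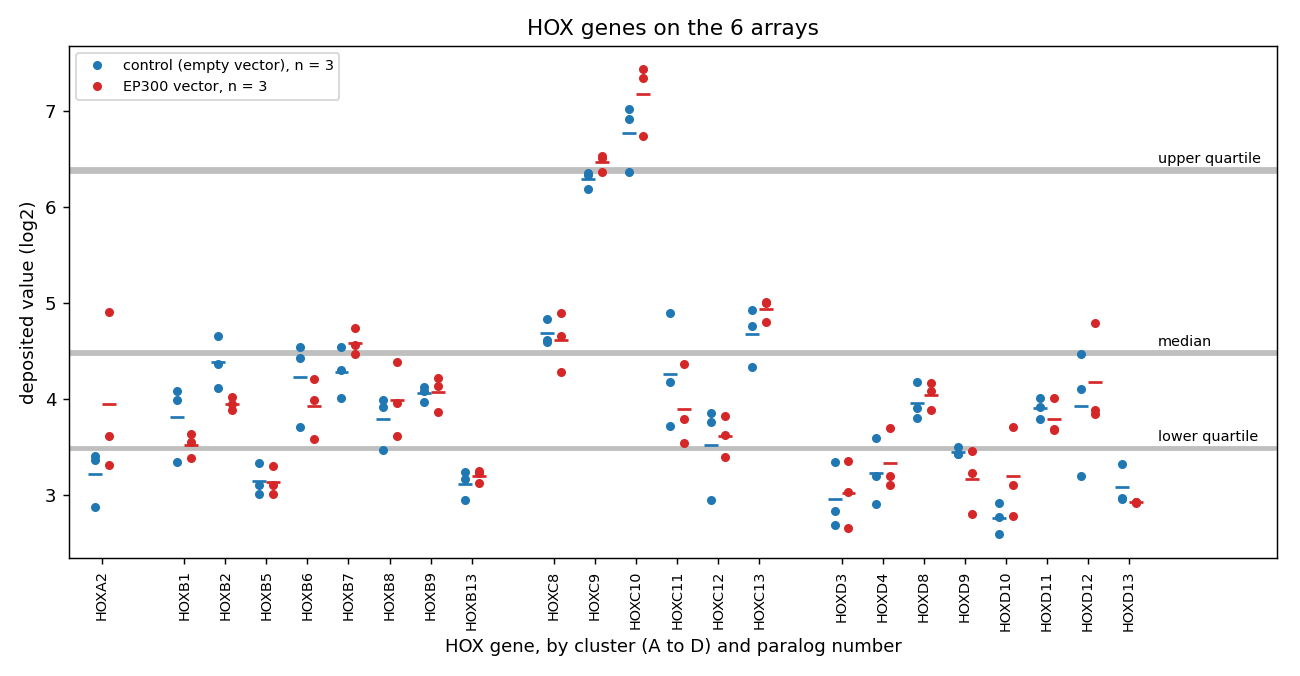
Deposited log2 value of each of the 23 HOX genes on every array, in cluster and paralog order, with control cultures in blue and EP300 cultures in red (points are arrays, bars are means, n = 3 each) and grey bands for the range of the array quartiles. HOXC9 and HOXC10 lie near or above the upper quartile, and most other genes lie between the lower quartile and the median or below it.

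No HOX gene passed the test between the groups. By limma with Benjamini-Hochberg adjustment over all probe sets, 0 of 23 HOX genes were called at an adjusted p of 0.05, as were 0 of 21448 probe sets (0%). The adjusted p of the HOX genes lay between 0.792 and 0.996. At an unadjusted limma p below 0.05 there were 0 HOX genes, against 6.52% of all probe sets. The groups did not overlap for 3 HOX genes (13%), against 12.2% of all probe sets, so this share was near the background. The values were higher in EP300 cultures for 14 genes and lower for 9 (60.9% higher, against 50.2% of all probe sets). This split turned to 10 higher and 13 lower without control replicate 1, and to 11 and 12 without EP300 replicate 3. The median difference was 0.08 over the HOX genes and 0.00 over all probe sets, and the median absolute difference was 0.20 in both.

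The intervals show how precisely the differences were measured. All 23 of the 95% intervals included 0. For 18 genes (78.3%) the interval lay within a difference of 1 in either direction (a doubling or halving of the probe set's signal), against 77.3% of all probe sets. The 5 whose interval reached further were HOXA2 (-0.14 to 1.59), HOXC10 (-0.20 to 1.02), HOXC11 (-1.12 to 0.38), HOXD10 (-0.15 to 1.05) and HOXD12 (-0.57 to 1.08). The replicate SD within a group had a median of 0.24 over the HOX genes and 0.31 over all probe sets. For probe sets near the background, a bound on the signal is not a bound on the transcript.

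**Figure D2:**
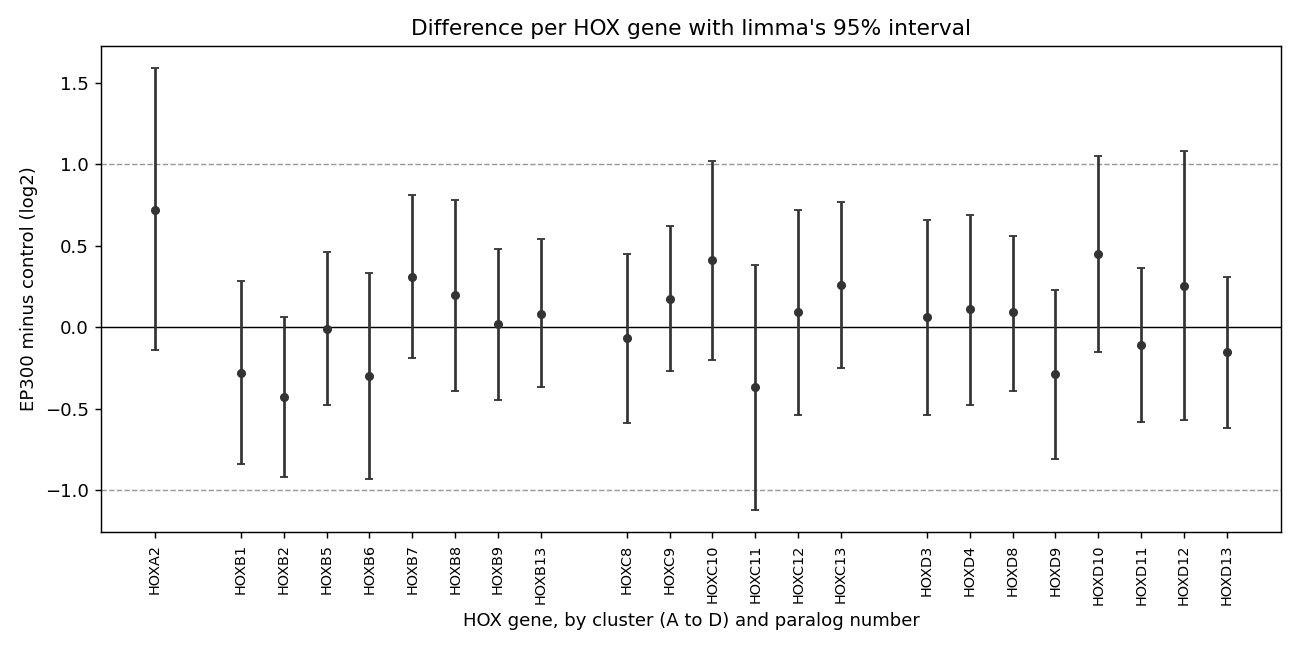
Difference between EP300 and control cultures (log2) for each HOX gene in cluster order, with limma's 95% interval (n = 3 arrays in each group), and dashed lines at a difference of 1 in either direction. Every interval crosses 0, and the widest is that of HOXA2.

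In the HOXC cluster, 4 of 6 genes had a higher and 2 a lower value in EP300 cultures, with a median difference of 0.13. HOXC10, a posterior gene active at lumbar and hindlimb levels of the embryo, read 6.92, 7.02 and 6.37 in control cultures and 7.44, 6.74 and 7.35 in EP300 cultures. The groups overlapped, since EP300 replicate 2 lay below 2 of the controls. The difference was 0.41 ± 0.27 SE (1.33-fold, limma adjusted p = 0.844), and it was 0.63 without EP300 replicate 2 and 0.21 without control replicate 3. HOXC10 lay above the upper quartile on 5 of the 6 arrays.

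HOXC9, a gene of thoracic levels and the neighbour of HOXC10, read 6.36, 6.19 and 6.34 in control cultures and 6.37, 6.51 and 6.53 in EP300 cultures. All EP300 values lay above all control values, though the nearest pair, control replicate 1 and EP300 replicate 1, was 6.36 against 6.37. The difference of 0.17 had an interval from -0.27 to 0.62 (limma adjusted p = 0.913). With an SD of 0.09 in each group, HOXC9 was among the HOX genes with the least spread between cultures.

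HOXC13, the last gene of the cluster and known for its part in hair and nail, read 4.76, 4.34 and 4.93 in control cultures and 4.8, 5.0 and 5.01 in EP300 cultures. The low value is that of control replicate 2, and the groups overlap through control replicate 3 and EP300 replicate 1. The difference was 0.26 ± 0.23 SE (limma adjusted p = 0.892), or 0.09 without control replicate 2. HOXC8, a gene of the trunk at the other end of the measured stretch, read 4.62, 4.60 and 4.84 in control and 4.90, 4.28 and 4.66 in EP300 cultures. The EP300 group thus held both the highest and the lowest value of HOXC8, and the means differed by -0.07. HOXC11 and HOXC12 lie between HOXC10 and HOXC13 and read lower than the array median in both group means. HOXC11 measured 4.27 ± 0.60 in control and 3.90 ± 0.42 in EP300 cultures (mean ± SD, n = 3 each), and HOXC12 3.53 ± 0.50 and 3.62 ± 0.21. The difference of HOXC11, -0.37, was -0.05 without control replicate 1, the array with the highest value (4.90).

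In the HOXB cluster, 4 genes had a higher and 4 a lower value in EP300 cultures, with a median difference of 0.00. HOXB2, an anterior gene that patterns the hindbrain, had the smallest limma p of the family. It read 4.37, 4.66 and 4.12 in control cultures and 3.95, 4.02 and 3.89 in EP300 cultures. Every EP300 value lay below every control value, and only control replicate 2 exceeded its array's median. The difference was -0.43 ± 0.22 SE (95% interval -0.92 to 0.06, limma adjusted p = 0.792, and 0.767 to 0.903 over the alternative settings). Without control replicate 2 it was -0.29.

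HOXB1, the most anterior gene of the cluster and a hindbrain gene that activates its own transcription, read 3.99, 3.35 and 4.09 in control cultures and 3.39, 3.64 and 3.55 in EP300 cultures. The control group spanned the EP300 group, with control replicate 2 the lowest value of all, and every value lay below the array median. The difference was -0.28 ± 0.25 SE (limma adjusted p = 0.893), -0.51 without control replicate 2, -0.19 without control replicate 1 and -0.14 without control replicate 3.

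HOXB7, a trunk gene often studied in breast carcinoma, read 4.01, 4.54 and 4.30 in control cultures and 4.56, 4.74 and 4.47 in EP300 cultures. The groups overlapped through control replicate 2 and EP300 replicate 3. The difference was 0.31 ± 0.22 SE (limma adjusted p = 0.867), and 0.17 without control replicate 1. Its neighbours HOXB6 and HOXB8 differed by -0.30 and 0.20, and none of the 3 passed. Without EP300 replicate 2 HOXB6 was at -0.13 and HOXB8 at -0.00, and without control replicate 2 HOXB6 was at -0.56. HOXB6 ran from 3.58 to 4.54 and HOXB8 from 3.47 to 4.39 over the 6 arrays. HOXB9 stayed between 3.87 and 4.22 (difference 0.02), HOXB5 between 3.01 and 3.33 (-0.01) and HOXB13, a gene of the adult prostate, between 2.95 and 3.25 (0.08).

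HOXA2, the 1 measured HOXA gene, patterns the hindbrain and the neural crest of the pharyngeal arches. It read 3.41, 2.88 and 3.37 in control cultures and 3.62, 4.91 and 3.31 in EP300 cultures. A single array, EP300 replicate 2, stood apart and was the only one above its median, while the other 5 arrays lay between 2.88 and 3.62. The difference of 0.72 ± 0.39 SE was the largest of the family in size (limma adjusted p = 0.796), and it was 0.24 without EP300 replicate 2.

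In the HOXD cluster, 5 genes had a higher and 3 a lower value in EP300 cultures, with a median difference of 0.07, and no group mean reached the array medians. HOXD10, a posterior gene of the limb and lumbar trunk and the paralog of HOXC10, read 2.77, 2.59 and 2.92 in control cultures and 3.11, 2.78 and 3.71 in EP300 cultures. The value of EP300 replicate 3 was the only one above the lower quartile of its array. The difference was 0.45 ± 0.27 SE (limma adjusted p = 0.821), and 0.19 without EP300 replicate 3. HOXD9, next to it, read 3.43, 3.43 and 3.50 in control cultures and 2.80, 3.23 and 3.46 in EP300 cultures. The control values were close together and EP300 replicate 1 was low. The difference was -0.29 ± 0.23 SE (limma adjusted p = 0.878), or -0.11 without EP300 replicate 1.

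HOXD13, the most posterior HOXD gene and a determinant of digits, read 2.96, 3.32 and 2.97 in control cultures and 2.93, 2.93 and 2.92 in EP300 cultures. The groups did not overlap, but all 6 values lay below the lower quartile, and the difference of -0.15 had an interval from -0.62 to 0.31. Without control replicate 2, the highest value, it was -0.04. HOXD12 varied most between cultures of a group in this cluster, from 3.20 to 4.79 over all arrays, with a difference of 0.25 that was -0.11 without control replicate 2. HOXD3, HOXD4, HOXD8 and HOXD11 differed by 0.06, 0.11, 0.09 and -0.11. HOXD8 lay between 3.80 and 4.18 and HOXD11 between 3.68 and 4.01, below the array medians, and HOXD3 (2.66 to 3.36) and HOXD4 (2.91 to 3.70) read lower still.

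Paralogs are the genes with the same number in different clusters. HOXC10 and HOXD10 differed by 0.41 and 0.45, and HOXA2 and HOXB2 by 0.72 and -0.43. Each of these 4 kept its sign whichever array was left out. They are the 4 HOX genes with the smallest limma p in these same data, so a kept sign is no support. Over the alternative settings HOXC9 (0.12 to 0.22) and HOXC13 (0.09 to 0.39) stayed positive. Their paralogs HOXD9 (-0.44 to -0.11) and HOXD13 (-0.21 to -0.04) stayed negative. Signs of some other paralogs turned, with HOXC8 at 0.09 without EP300 replicate 2 and HOXB9 at -0.05 without EP300 replicate 3, where all arrays gave -0.07 and 0.02. None of these differences passed the test, and differences between paralogs were not tested. Paralogs are close in sequence in the homeobox, and signal that one probe set takes up from another gene was not separated.

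The genes that act with HOX proteins or on the clusters were read from lists, and by limma no member of these lists passed the adjustment. Of 11 TALE cofactors, 7 were higher and 4 lower in EP300 cultures (median difference 0.03), and 1 had an unadjusted p below 0.05 (9.09%, near the 6.52% of all probe sets). This was IRX5, an Iroquois homeobox gene, which read 4.08, 4.10 and 3.83 in control cultures and 3.58, 3.71 and 3.13 in EP300 cultures. Its difference of -0.53 ± 0.23 SE had a limma adjusted p of 0.765. PBX2, a direct HOX partner, measured 4.97 ± 0.44 and 5.48 ± 0.12 (mean ± SD, n = 3 each), a difference of 0.51 ± 0.26 SE, which was 0.27 without control replicate 1 (limma adjusted p = 0.792).

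Of 25 Polycomb genes, 15 were higher and 10 lower (median 0.04), and all 25 had a group mean above the array medians. CBX7, a chromodomain subunit that reads the repressive histone mark, was the 1 gene with an unadjusted p below 0.05 (4%, under the 6.52% of all probe sets). It read 5.41, 4.60 and 4.94 in control cultures and 5.89, 5.38 and 5.87 in EP300 cultures, and control replicate 1 overlapped with EP300 replicate 2. The difference was 0.73 ± 0.27 SE (1.66-fold, limma adjusted p = 0.746). PCGF3, a subunit of a Polycomb ubiquitin ligase, differed by 0.51 ± 0.24 SE (limma adjusted p = 0.787), and by 0.34 without EP300 replicate 2.

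Of 18 Trithorax/MLL genes, 7 were higher and 11 lower (median -0.14), with 2 at an unadjusted p below 0.05, both lower (11.1%, against 6.52% of all probe sets). KMT2B, a histone methyltransferase of the MLL family, read 4.8, 5.16 and 4.96 in control cultures and 4.04, 4.39 and 4.64 in EP300 cultures. KMT2D, which marks enhancers, read 5.63, 5.0 and 5.19 and then 4.69, 4.77 and 4.8. For both genes the groups did not overlap. The differences were -0.62 ± 0.23 SE for KMT2B and -0.52 ± 0.23 SE for KMT2D (limma adjusted p = 0.748 and 0.765), and that of KMT2D was -0.34 without control replicate 1.

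Of 14 genes of retinoid synthesis, binding and breakdown, 10 were higher and 4 lower (median 0.06), and 3 had an unadjusted p below 0.05 (21.4%, against 6.52% of all probe sets). ALDH1A2 and ALDH1A1 encode enzymes that make retinoic acid. ALDH1A2 read 3.75, 3.66 and 4.08 in control cultures and 4.97, 4.45 and 5.30 in EP300 cultures, and ALDH1A1 read 4.26, 3.54 and 3.18 and then 5.45, 4.35 and 5.29. In both genes every EP300 value was above every control value, and the control means lay below the array medians, where the background is unknown. The differences were 1.08 ± 0.26 SE for ALDH1A2 and 1.37 ± 0.36 SE for ALDH1A1 (limma adjusted p = 0.735 for both). CYP26C1, which encodes an enzyme that breaks retinoic acid down and is named after its value was seen as the third of the 3, differed by -0.64 ± 0.24 SE, with both group means below the array medians.

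**Figure D3:**
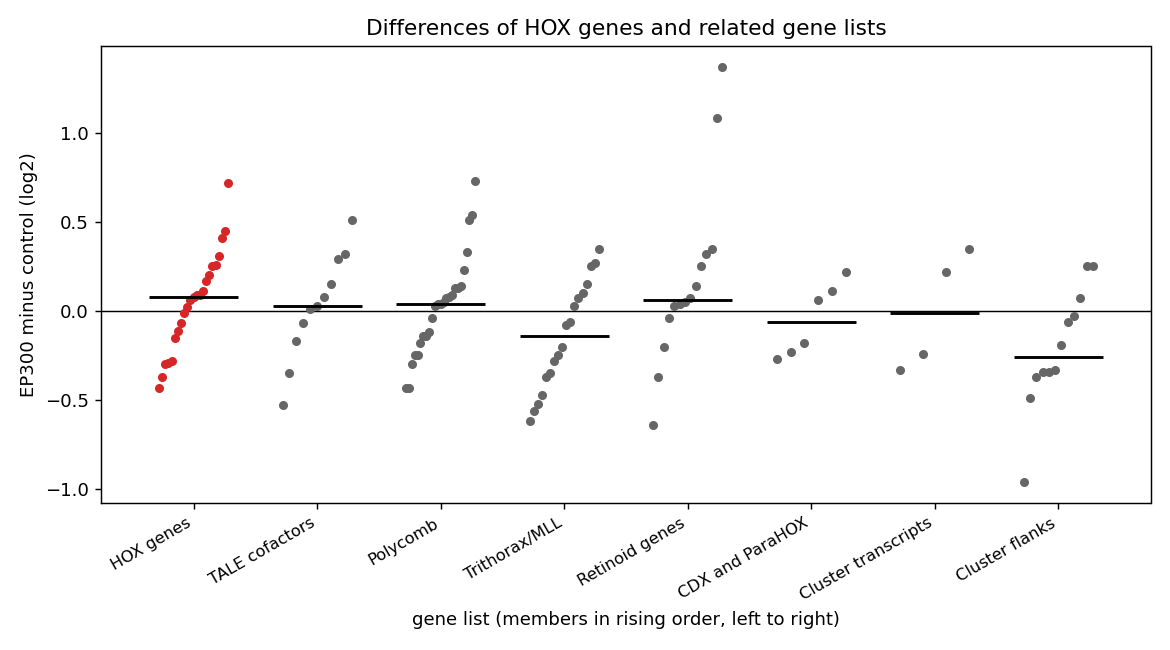
Difference between EP300 and control cultures (log2) for each measured member of the HOX family (red) and of 7 related lists (grey), in rising order within a list, with the list's median as a black bar. HOX genes lie between -0.43 and 0.72, and the highest points of the plot are ALDH1A2 (1.08) and ALDH1A1 (1.37) among the retinoid genes.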

How the data were processed

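RNA of 3 control and 3 EP300 cultures was labelled with a whole-transcript kit and hybridised to Affymetrix arrays, per the labels' protocols. The authors deposited 1 value per probe set and array, taken as log2 from the values (1.79 to 19.93). Partek 6.6 is named in the submitters' processing notes. Normalization, summarisation and genome build were not given in the sources used here. Platform annotation gave a symbol for 17709 of 21448 probe sets, and 0 of these were named EP300. Gene order came from RefSeq.

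EP300 minus control was fitted with limma 3.58.1 (lmFit, eBayes) in R 4.3.3 on all probe sets without filter or block, with Benjamini-Hochberg adjustment and a threshold of 0.05. The fit was tested on simulated data. Full statistics are given for the 8 HOX genes with the smallest p. Values on every array are also given for HOX genes with a group mean above all array medians. From each related list the 2 genes with the smallest p are named, and from some lists further members. Members and lists were chosen with earlier results of these data known. Same-numbered cultures did not deviate together. The number of arrays limits the precision.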

Additional observations from a re-analysis of the deposited data

How the results depend on the processing

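The count of 0 HOX genes called held under all 12 alternative settings. These were quantile normalization, median centring, the variance trend with robust estimation and 1 probe set for each gene. The others were a filter at the median level, the replicate block and leaving out each array. Among all probe sets 4 were called with the variance trend and robust estimation, and 0 in every other setting. The count at an unadjusted limma p below 0.05 was 0 to 2 of 23 without 1 array, against 5.71% to 6.45% of all probe sets in these refits. HOXB2 passed that level without control replicate 3, HOXC10 and HOXD10 without EP300 replicate 2, and HOXA2 without EP300 replicate 3. The median difference was 0.26 among the 5 HOX genes left above the median level, and ran from -0.01 (without EP300 replicate 3) to 0.14 (without control replicate 3) when 1 array was left out. With the replicate number as a block 0 HOX genes were called. Each number occurs once in each group, so the block cannot change a difference, and the median of 0.08 was fixed by the design. Deviations of same-numbered arrays correlated at -0.00153, -0.00528 and -0.00893 over probe sets, so no shared deviation was seen. This cannot show if same-numbered cultures were handled together. The count of HOX genes above the array medians was 4 to 6. The 8 HOX genes with full statistics kept their direction in all 91 refits of a gene under an alternative setting. The 14 genes named for the smallest p in related lists kept theirs in all 162 refits, which were chosen after seeing the data. The level filter, 1 probe set for each gene, the variance setting and the block leave a gene's difference unchanged. Those refits could not turn a sign. Both sets of genes were picked for the smallest p in these same arrays, so a kept direction is no support. Signs turned among the other HOX genes, as in HOXC12 (-0.20 to 0.26), HOXD3 (-0.11 to 0.26) and HOXD12 (-0.11 to 0.52). Values near the lower quartile of the arrays limit what most HOX probe sets can show.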

Other observations

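Genes beside the HOX clusters were read as a further list. Of 12 flanking genes 3 were higher and 9 lower in EP300 cultures, with a median difference of -0.26 (50.2% of all probe sets were higher), and by limma 0 passed the adjustment and 1 had an unadjusted p below 0.05 (8.33%, near the 6.52% of all probe sets). This was SKAP1, a T-cell adaptor gene on the HOXB side, which read 4.15, 3.61 and 3.13 in control cultures and 2.39, 2.60 and 3.02 in EP300 cultures. Every EP300 value was below every control value and below the lower quartile of its array, and the difference was -0.96 ± 0.30 SE (limma adjusted p = 0.735). SMUG1, a DNA repair glycosylase gene on the HOXC side, measured 5.27 ± 0.20 in control and 4.77 ± 0.36 in EP300 cultures (mean ± SD, n = 3 each), a difference of -0.49 ± 0.25 SE that was -0.32 without EP300 replicate 1 (limma adjusted p = 0.791). The even-skipped homeobox genes at the posterior cluster ends, EVX1 and EVX2, are named beside the 2 flanking genes with the smallest p. Both differed by -0.34, with overlapping groups (limma unadjusted p = 0.268 and 0.248). The EVX1 means of 3.77 and 3.44 lay near the lower quartile of the arrays.

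Of 25 non-coding and other small transcripts listed for the clusters, 4 were measured. HOXA-AS3 differed by -0.33 (-0.18 without control replicate 2, -0.55 without control replicate 3), PRAC2 by -0.24, HOXB-AS3 by 0.35 and PRAC1 by 0.22, and none had an unadjusted limma p below 0.05. How far these probe sets tell a gene from its antisense partner was not tested. Of the 6 CDX and ParaHOX genes, relatives of the HOX genes outside the clusters, 3 were higher and 3 lower (median -0.06), with CDX4 at 0.22 (0.13 without control replicate 1) and GSX2 at -0.23 (-0.12 without EP300 replicate 2, -0.36 without EP300 replicate 3, -0.13 without control replicate 1), and none had an unadjusted limma p below 0.05.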
